A study of Mus musculus with 16 samples.

Results

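The subject is a set of 1118 regions of the mouse genome whose chromatin was less accessible in Brg1-deficient mTEChi than in their controls. They were selected from a table of 250313 regions of 500 bp, of which they are 0.447%. A region was a member if the lower of its 2 Brg1+/+ mTEChi libraries had at least 2 times the signal of the higher of its 2 Brg1-/- mTEChi libraries, and if the Brg1+/+ mTEChi mean was at least 30. The rule also bars an interval on chromosome 2, which removed 0 regions. Among the 57208 regions that reached the minimum level, 1.95% were members. The 4 mTEChi libraries of the Brg1 line chose the members, so their difference there is a description, and the other 12 libraries were used to ask what else these regions have in common.

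The assay, ATAC-seq, reads accessibility from the sites where the transposase Tn5 can cut DNA and leave sequencing adapters. The cells were medullary thymic epithelial cells (mTECs), and each Tn5 reaction took 60000 of them. They came from thymi of 4-week-old mice labelled C57BL/6 and were gated as viable EpCAM+ UEA+ cells with little Ly51 and no CD45. Surface MHC class II divided them into a high fraction, mTEChi, and a low fraction, mTEClo. Each fraction was profiled in 2 libraries of Brg1+/+, Brg1-/-, Aire+/+ and Aire-/- mice, 16 in all. The Brg1+/+ libraries carry the word NOCRE in their descriptions, so the Brg1 genotypes may also differ in whether Cre is present. The Cre driver, the cells in which it acts and the completeness of the deletion are not given in the sources used here.

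Brg1 (Smarca4) is an ATPase subunit of the mammalian SWI/SNF remodelling complexes, which use ATP to slide or evict nucleosomes and so open DNA, mainly at enhancers, to transcription factors. mTECs display antigens of many peripheral tissues to developing T cells, and Aire drives the transcription of many of the genes involved. mTEChi are the fraction in which most Aire is made, and mTEClo hold immature precursors together with cells that have passed the Aire stage.

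The values are the authors' scaled signal, and read depth is unknown, so no counting interval can be given. Separate mice are not stated for the 2 libraries of a group, and p-values therefore measure a spread that may be technical. No sequencing date or batch is labelled. Replicate 2 of Aire+/+ mTEChi stands apart from the other mTEChi libraries of its line in having the highest signal over all regions tested (median 20.2, against 16.3 to 18.6 in the other 3) and the lowest at the members. The regions are in mm9 coordinates and were not linked to genes here, so the identity of the sorted cells was not checked at marker genes.

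In the libraries that chose them, the members were moderately open regions of Brg1+/+ mTEChi that lay in the lower part of the distribution in Brg1-/- mTEChi. The median member had a signal of 40.8 and 42.3 in the Brg1+/+ mTEChi libraries and of 10.4 and 12.8 in the Brg1-/- mTEChi libraries. The ratio of group means had a median of 3.59 with quartiles of 2.94 and 4.57, and reached 21.4. In 744 members (66.5%) both Brg1-/- libraries were under the median of all regions in that library, a level held by 28.9% of all 225281 regions tested. The median over all regions tested moved the other way, from 14.4 ± 1.05 in Brg1+/+ to 19.1 ± 3.27 in Brg1-/- mTEChi (SD, n = 2). The same rule with the genotypes exchanged selected 3561 regions. Both lists rest on the authors' scaling: after quantile normalization the rule would have chosen 1906 members, and after re-centring each library at its median 3716. limma called 25 regions of the series lower in Brg1-/- mTEChi (0.0111%), and 22 of them are members. This comparison uses the same 4 libraries as the rule, so the overlap is a description and no separate support. The other members were not called and rest on the ratio alone.

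**Figure D1:**
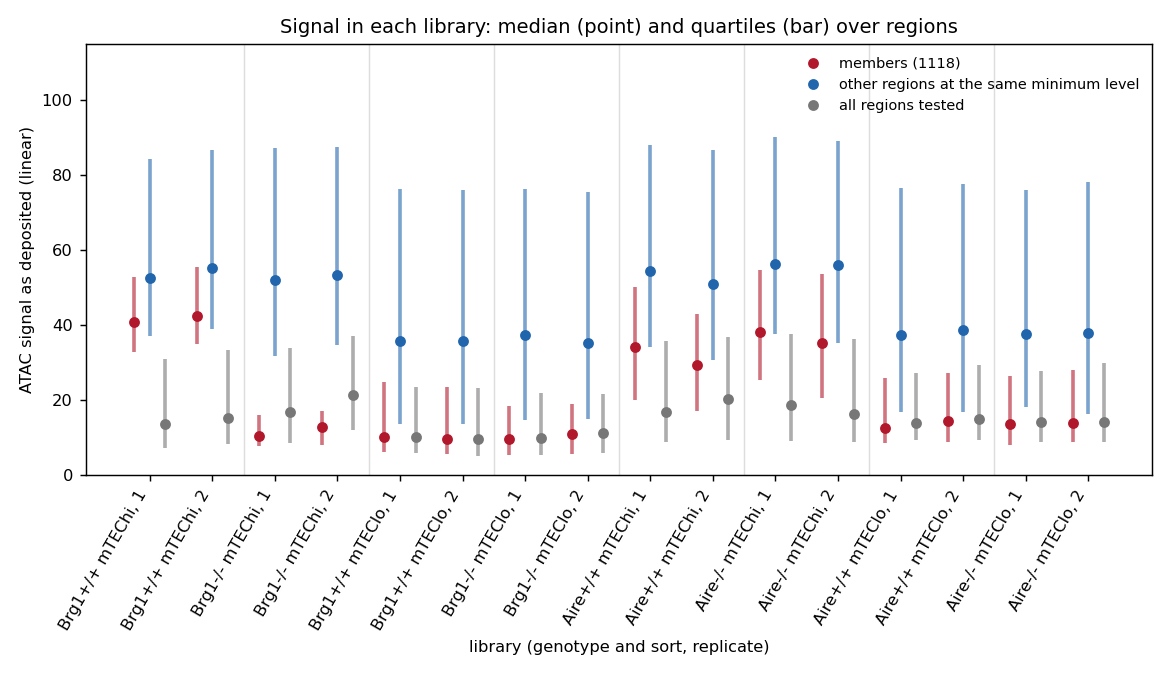
Deposited ATAC signal (linear axis) in each of the 16 libraries, with the median as a point and the quartiles as a bar, for the 1118 members, for 56090 other regions with the same minimum level in Brg1+/+ mTEChi, and for all regions tested. The members' medians are 40.8 and 42.3 in Brg1+/+ mTEChi, 29.4 to 38.1 in the 4 Aire-line mTEChi libraries, and 9.47 to 14.3 in the mTEClo and Brg1-/- mTEChi libraries.

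The strongest ratios belonged to regions that were almost closed in both Brg1-/- mTEChi libraries. At chr9:98238481-98238980 the signal was 38.7 and 49.4 in Brg1+/+ mTEChi and 2.12 and 1.99 in Brg1-/- mTEChi, a ratio of 18.2 between the nearest libraries. At chr4:126994287-126994786 it was 27.5 and 55.3 against 2.01 and 1.99, and at chr11:41751294-41751793 it was 47.0 and 24.0 against 2.01 and 1.90. The 1.99 at the chromosome 9 and chromosome 4 regions is the most frequent value of Brg1-/- mTEChi replicate 2, held by 3.13% of regions. The size of such ratios is therefore imprecise. Some of the most open members kept more signal. The member with the highest Brg1+/+ mTEChi mean, chr8:116879717-116880216, had 166 and 143 in Brg1+/+ and 65.2 and 70.9 in Brg1-/- mTEChi. Another, chr12:112624628-112625127, had 164 and 138 against 44.7 and 55.3. By contrast, chr11:96995453-96995952 had 92.7 and 170.3 in Brg1+/+ and 12.9 and 24.1 in Brg1-/- mTEChi.

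The thresholds cut through a continuum. Just inside the fold limit, chr1:184434311-184434810 had 68.0 and 84.3 in Brg1+/+ against 30.8 and 34.0 in Brg1-/- mTEChi. Just outside it, chr9:9033586-9034085 had 47.0 and 28.7 against 9.97 and 14.4. Just inside the level limit, chr2:169350218-169350717 had 24.1 and 36.0 in Brg1+/+ mTEChi. Just outside that limit, chr4:119745018-119745517 had 32.4 and 27.5. A 3-fold limit would have kept 291 members and a minimum mean of 60 would have kept 195.

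The Aire-line mTEChi libraries, made from mice labelled with the other gene and not used by the rule, gave a second view of these regions in cells not labelled as lacking Brg1. The members were open there too, though less so than in the Brg1+/+ libraries that had been required to be high. Their median signal was 34.2 and 29.4 in Aire+/+ mTEChi and 38.1 and 35.2 in Aire-/- mTEChi, and the ranges of these 4 libraries and the 2 Brg1-/- mTEChi libraries did not overlap. As a rank among all 250313 regions, the median member stood at percentile 75.9 and 68.5 in Aire+/+ mTEChi and at 77.8 and 76.7 in Aire-/- mTEChi. In Brg1-/- mTEChi it stood at 40.2 and 30.7. In 697 members (62.3%) both Brg1-/- mTEChi libraries were below all 4 Aire-line mTEChi libraries, against 8.27% of all regions tested and 11.0% of the other regions at the same minimum level. The reverse order was found for 0 members, against 10.4% of all regions tested and 11.1% of the other regions at the same minimum level. This comparison still contains the Brg1-/- libraries that chose the members, so it is given without a test. It also sets 2 mouse lines side by side, and line and genotype cannot be told apart in it.

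Not every member was open in the Aire line. The mean of Aire+/+ mTEChi reached 30, the level demanded of Brg1+/+ mTEChi, in 610 members (54.6%), and that of Aire-/- mTEChi in 709 (63.4%). The share was 81.1% in Aire+/+ mTEChi for the other regions at the same minimum level. An example of a member with little signal in the Aire line is chr4:43914419-43914918. It had 43.1 and 32.5 in Brg1+/+ mTEChi and 4.12 and 1.99 in Brg1-/- mTEChi, but 27.7 and 5.90 in Aire+/+ and 4.30 and 17.3 in Aire-/- mTEChi. Those 4 Aire-line values range from near the Brg1-/- level to near the Brg1+/+ level.

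mTEClo were then compared with mTEChi, to see whether the members are regions that distinguish the 2 fractions. In Aire+/+ mice the members were more often called higher in mTEChi than regions in general. limma called 208 of 1118 members higher in mTEChi (18.6%, with 5.14% of all regions tested called in that direction) and 52 higher in mTEClo (4.65%, with 3.65%). In Aire-/- mice, 304 members (27.2%, with 7.15%) were called higher in mTEChi and 39 (3.49%, with 4.22%) higher in mTEClo. The other regions at the same minimum level gave 14.0% higher in mTEChi in Aire+/+ and 18.0% in Aire-/-, so part of the excess over all regions is shared by regions of that level. The median log2 difference of the members, on the scale of log2(signal + 1), was 0.93 in Aire+/+ and 1.12 in Aire-/-. The corresponding medians were 0.16 and 0.10 over all regions tested, and 0.32 and 0.40 over the other regions at the same minimum level.

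The lean towards mTEChi can be read in the signal itself. The median member had 34.2 and 29.4 in Aire+/+ mTEChi and 12.5 and 14.3 in Aire+/+ mTEClo, and it had 38.1 and 35.2 in Aire-/- mTEChi and 13.6 and 13.9 in Aire-/- mTEClo. In 603 members (53.9%, with 29.1% of all regions) both Aire+/+ mTEChi libraries exceeded both Aire+/+ mTEClo libraries, and in Aire-/- mice 715 members (64.0%, with 33.0%) did so. The opposite order was found in 142 members in Aire+/+ (12.7%, with 21.5%). For the other regions at the same minimum level, mTEChi was above in 43.5% in Aire+/+ and 48.7% in Aire-/-. It was below in 17.2% of them in Aire+/+. Both Aire genotypes agreed in calling 139 members higher in mTEChi (12.4%, against 2.92% of all regions) and 26 higher in mTEClo (2.33%, against 1.84%). The other regions at the same minimum level gave 9.78% and 2.07%, so much of the mTEChi excess is shared by regions of that level. A further 680 members (60.8%) were called in neither genotype, against 84.6% of all regions tested and 71.9% of the other regions at the same minimum level. In each of these sets 0 regions were called in opposite directions. The balance of calls in Aire+/+ depended on scaling, though more members stayed higher in mTEChi. Re-centring each library at the median of all regions gave 121 members higher in mTEChi and 74 higher in mTEClo, in place of 208 and 52. In Aire-/- it gave 242 and 45, in place of 304 and 39. The share of all regions called after re-centring was not computed. The calls together, 260 in Aire+/+ and 343 in Aire-/-, fell to between 93 and 165 and to between 122 and 152 when any 1 of the 4 libraries of the comparison was left out.

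**Figure D2:**
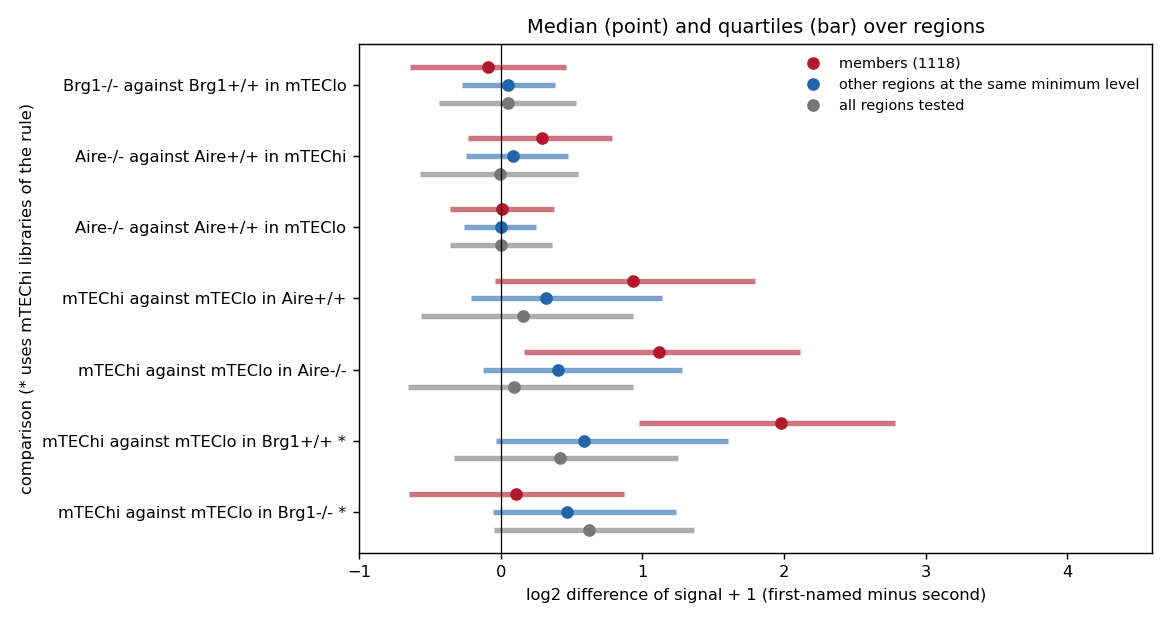
Median (point) and quartiles (bar) of the log2 difference of signal + 1 in 7 comparisons, for the members, the other regions at the same minimum level and all regions tested. An asterisk marks the 2 comparisons that contain libraries of the rule. The members' median is 0.93 and 1.12 for mTEChi against mTEClo in the Aire line, 1.98 in Brg1+/+ and 0.11 in Brg1-/-, and -0.09 for Brg1 loss in mTEClo.

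Among the members called higher in mTEChi, several were nearly closed in mTEClo of either line. At chr11:96995453-96995952, Aire+/+ mice had 133 and 126 in mTEChi and 8.28 and 4.78 in mTEClo, a log2 difference of 4.15 (SE 0.60; limma, adjusted p = 3.18e-05). In Aire-/- it was 158 and 225 against 8.85 and 22.1. In the Brg1 line the same region had 92.7 and 170.3 in Brg1+/+ mTEChi, 12.9 and 24.1 in Brg1-/- mTEChi, 3.31 and 8.93 in Brg1+/+ mTEClo and 2.44 and 4.34 in Brg1-/- mTEClo. Thus 6 mTEChi libraries were high at this region, and the Brg1-/- mTEChi libraries lay much nearer to mTEClo.

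The region chr1:138013554-138014053, the third most open member in Brg1+/+ mTEChi, had the same order. It gave 104 and 129.7 in Aire+/+ mTEChi, 257 and 252 in Aire-/- mTEChi, 8.14 and 11.9 in Aire+/+ mTEClo and 16.4 and 12.2 in Aire-/- mTEClo. Its log2 differences between the fractions were 3.44 in Aire+/+ and 4.08 in Aire-/- (limma, adjusted p = 2.63e-05 and 1.86e-06). In Brg1-/- mTEChi it kept 68.2 and 62.2 of the 142 and 139 seen in Brg1+/+ mTEChi, and it had 5.01 to 15.1 in the 4 mTEClo libraries of the Brg1 line.

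Other members called higher in mTEChi rested on very low mTEClo values. At chr5:124779906-124780405 the mTEChi values were 67.4 and 44.9 in Aire+/+ and 91.1 and 151 in Aire-/-, and the mTEClo values were 6.76 and 1.23 in Aire+/+ and 1.80 and 11.9 in Aire-/-. The log2 difference was 3.75 in Aire+/+ (limma, adjusted p = 0.00288) and 4.30 in Aire-/- (limma, adjusted p = 0.00062). At chr4:106373381-106373880 the call was made in Aire+/+ alone. Its mTEClo values there were 9.96 and a listed 0, against 65.4 and 101 in mTEChi, while Aire-/- had 55.0 and 54.4 against 16.3 and 26.4 (limma, adjusted p = 0.263).

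A minority of members belonged to mTEClo. At chr11:41751294-41751793, one of the strongest ratios of the rule, mTEClo had 272 and 322 in Aire+/+ and 225 and 387 in Aire-/-, while mTEChi had 31.9 and 41.7 in Aire+/+ and 37.3 and 49.9 in Aire-/-. The log2 difference was -2.99 in Aire+/+ (SE 0.37; limma, adjusted p = 5.1e-06). In the Brg1 line it had 255 and 204 in Brg1+/+ mTEClo and 80.2 and 104 in Brg1-/- mTEClo. At chr11:75794096-75794595 the Aire+/+ signal was 3.19 and 9.42 in mTEChi and 96.8 and 103 in mTEClo, a log2 difference of -3.93 (SE 0.53; limma, adjusted p = 1.53e-05). Its Brg1+/+ mTEChi values, 54.7 and 22.6, differed widely from each other. At chr8:125665974-125666473 the Aire+/+ signal was 28.6 and 13.1 in mTEChi against 165 and 174 in mTEClo, and the Brg1+/+ signal was 76.7 and 76.6 against 169.9 and 166. These mTEClo-high members were open in Brg1+/+ mTEClo. Their higher signal in Brg1+/+ than in Brg1-/- mTEChi is a condition of the rule. In Aire+/+ mTEChi, which the rule did not use, their signal ranged from 3.19 to 41.7.

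In the Brg1 line the comparison of the fractions contains libraries of the rule and is given as a description. The members' median log2 difference of mTEChi against mTEClo was 1.98 in Brg1+/+ and 0.11 in Brg1-/-, beside 0.42 and 0.62 over all regions tested. In signal, the median member had 41.6 ± 1.03 in Brg1+/+ mTEChi, 11.6 ± 1.66 in Brg1-/- mTEChi, 9.84 ± 0.51 in Brg1+/+ mTEClo and 10.3 ± 1.00 in Brg1-/- mTEClo (SD of library medians, n = 2). In deposited signal the Brg1-/- mTEChi level, which the rule required to be low, lay near that of mTEClo. By rank among all regions it lay below. The median member stood at percentile 40.2 and 30.7 in Brg1-/- mTEChi and at 53.2 to 55.4 in the mTEClo libraries of the Brg1 line. The 3555 tested regions selected by the exchanged rule had no such lean in the Aire line, where their median log2 difference of mTEChi against mTEClo was 0.17 in Aire+/+ and 0.13 in Aire-/-. Their median signal in Aire+/+ mTEChi was 17.2, and in Brg1-/- mTEChi, which chose them, it was 38.5. The exchanged rule favours low Brg1+/+ mTEChi signal (median 9.98), whereas the member rule demands a mean of at least 30. The 2 lists thus differ in wild-type mTEChi level by construction, and the difference in lean is not independent of that.

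Loss of Brg1 in mTEClo was the same genotype comparison in libraries that the rule did not use. Over the whole set the difference was small. The median log2 difference of Brg1-/- against Brg1+/+ mTEClo was -0.09, with quartiles of -0.64 and 0.46, beside 0.05 over all regions tested. Both Brg1-/- mTEClo libraries were below both Brg1+/+ mTEClo libraries in 297 members (26.6%, with 18.4% of all regions tested) and above both in 184 (16.5%, with 20.6%). At an unadjusted p under 0.05 limma marked 126 members (11.3%, with 6.15%). After adjustment it called 1 member lower (with 0.000444%, the single call in the series) and 0 higher.

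That member was chr6:122419207-122419706. Its signal was 52.4 and 39.2 in Brg1+/+ mTEClo and 6.16 and 5.24 in Brg1-/- mTEClo, a log2 difference of -2.79 (SE 0.41; limma, adjusted p = 0.0208). Brg1+/+ mTEChi had 94.6 and 92.4 there, and Brg1-/- mTEChi had 26.9 and 30.3. The 8 Aire-line libraries were all above the Brg1-/- libraries of their fraction, with 103 and 184 in Aire+/+ mTEChi, 244 and 136 in Aire-/- mTEChi, 54.2 and 60.2 in Aire+/+ mTEClo and 43.3 and 82.3 in Aire-/- mTEClo. It was also called higher in mTEChi in both Aire genotypes, by 1.26 in Aire+/+ and 1.59 in Aire-/- (limma, adjusted p = 0.0484 and 0.0096). The Brg1 call in mTEClo was lost without any 1 of the 4 mTEClo libraries of the Brg1 line, with a pseudocount of 5, after quantile normalization, or when only the Brg1 line was fitted.

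The members were also set against the regions chosen by the same rule in mTEClo, which demands a Brg1+/+ mTEClo mean of at least 30. That mean was reached by 220 members (19.7%, with 19.7% of all regions tested), so no more than 220 could be shared. That rule selected 1493 regions, and 25 were shared, which is 2.24% of the members and 1.67% of the mTEClo list, while 0.596% of all regions are in the mTEClo list. With the fold part of the rule alone, 54 members (4.83%, with 2.44% of all regions tested) were at least 2-fold lower in Brg1-/- mTEClo and 26 (2.33%, with 2.95%) at least 2-fold higher. One of the shared regions was chr3:143017932-143018431, with 79.0 and 96.1 in Brg1+/+ mTEClo and 17.3 and 22.3 in Brg1-/- mTEClo (log2 difference -2.09; limma, adjusted p = 0.487). Several other members with a high mTEClo ratio had little signal to lose. At chr5:19095235-19095734, Brg1+/+ mTEClo had 3.79 and 8.39 and Brg1-/- mTEClo had 0.513 and 0.413.

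Most members were low in mTEClo of either genotype, and the Brg1 difference there varied with how open a member was in mTEClo. The level was taken from the mean of the 4 Aire-line mTEClo libraries, which enter neither the rule nor the Brg1 comparison, and the level bins were chosen after the data were seen. Of the 366 members under 10, both Brg1-/- mTEClo libraries were below both Brg1+/+ libraries in 15.3% (with 11.6% of all regions at that level). The share was 17.8% (with 15.6%) of the 366 members from 10 to 20 and 32.9% (with 24.3%) of the 222 members from 20 to 40. It was 60.7% (with 31.0%) of the 107 members from 40 to 80 and 66.7% (with 26.9%) of the 57 members at 80 and over. The opposite order was found in 25.7% (with 24.2%), 18.3% (with 21.8%), 9.46% (with 16.8%), 0.935% (with 15.1%) and 1.75% (with 18.1%) of the members of these 5 bins, from the lowest level to the highest.

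**Figure D3:**
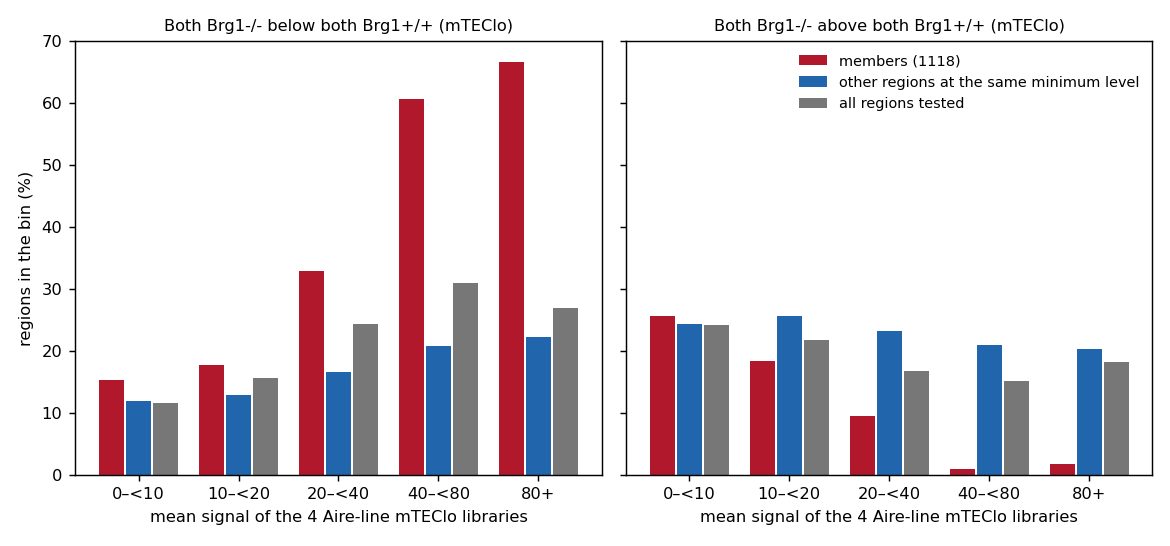
Share of regions (%) in which both Brg1-/- mTEClo libraries lie below (left) or above (right) both Brg1+/+ mTEClo libraries, by the mean signal of the 4 Aire-line mTEClo libraries, for the members, the other regions at the same minimum level and all regions tested. On the left the members go from 15.3% under 10 to 66.7% at 80 and over. On the right they go from 25.7% to 1.75%.

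The 164 members with an Aire-line mTEClo mean of 40 or more show the difference in each library. Their median signal was 60.7 and 58.9 in Brg1+/+ mTEClo and 41.5 and 36.5 in Brg1-/- mTEClo. It was 66.3 and 69.1 in Aire+/+ mTEClo and 59.8 and 69.7 in Aire-/- mTEClo. The Aire-line libraries set this level, so the order of the Brg1-/- libraries against them follows in part from the choice of regions. The Brg1-/- libraries were the lowest of the 8 mTEClo libraries at the members, and also over all tested regions at that level. Over those regions they had medians of 63.0 and 62.0, against 68.1 and 66.2 in Brg1+/+ mTEClo. Of these members, 103 (62.8%, with 29.3% of the 36698 tested regions at that level) had both Brg1-/- libraries below both Brg1+/+ libraries, and 2 (1.22%, with 16.4%) had them above. Their median log2 difference was -0.62, with quartiles of -1.11 and -0.26, and it stayed between -0.73 and -0.57 when 1 library of the comparison was left out. Over all tested regions at that level the median was -0.08.

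Other regions that are open in both fractions give the values to set beside these. The 27013 other regions at the same minimum level in Brg1+/+ mTEChi and at 40 or more in Aire-line mTEClo had medians of 78.6 and 78.3 in Brg1+/+ mTEClo and 78.1 and 77.5 in Brg1-/- mTEClo. Both Brg1-/- libraries were lower in 21.5% of them and higher in 20.6%. At an unadjusted p under 0.05, limma marked 52 of the 164 members (31.7%, with 8.79% of all tested regions at that level), all 52 lower in Brg1-/-. Of the 3225 regions so marked at that level over the whole table, 2362 were lower. Among the 27013 other regions 7.42% were marked, 1171 of 2004 of them lower. With adjustment over all regions, 1 of the 164 was called, the chromosome 6 region above. The 293 regions of the exchanged rule at that level gave 31.1% lower and 15.0% higher.

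The members were also divided by their call between the fractions in Aire+/+, since regions called higher in mTEClo often had less signal in Brg1-/- mTEClo. Among the 50 members at 40 or more that were called higher in mTEClo, 62.0% had both Brg1-/- mTEClo libraries below both Brg1+/+ libraries. This is near the 55.1% of all 6218 such regions, and the medians of the log2 difference were -0.49 and -0.46. For the 2178 such regions among the others at the same minimum level, the share was 45.5% and the median -0.25. Among the 113 members at 40 or more that were not called between the fractions, the share was 62.8% (with 24.3% of the 29450 such regions) and the median -0.66 (with -0.03). The 23807 such regions among the others at the same minimum level gave 19.5% and 0.02. In these 113 members the median signal was 56.3 and 54.9 in Brg1+/+ mTEClo and 38.3 and 33.0 in Brg1-/- mTEClo, and the 2 genotypes did not overlap. Among the 208 members of any level called higher in mTEChi, 15.4% were lower (with 13.5%) and 19.2% higher (with 25.3%). For members at 40 or more not called between the fractions, the share with less signal in Brg1-/- mTEClo thus lay well above both comparison sets. For those called higher in mTEClo, the share was near that of all such regions. It was above that of the other regions at the same minimum level (62.0% with 45.5%). A single member at 40 or more was called higher in mTEChi, the chromosome 6 region.

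Examples of members open in mTEClo are the mTEClo-high regions of chromosome 11 above. At chr11:75794096-75794595 the signal was 113 and 99.5 in Brg1+/+ mTEClo and 46.0 and 52.5 in Brg1-/- mTEClo. At chr5:40014567-40015066 it was 105 and 109 against 20.4 and 52.3. The difference was not seen at each member of this kind. At chr12:112624628-112625127 it was 93.1 and 94.2 in Brg1+/+ mTEClo and 142 and 99.4 in Brg1-/- mTEClo, although the region had 164 and 138 in Brg1+/+ and 44.7 and 55.3 in Brg1-/- mTEChi.

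Across the 1118 members, the log2 difference of Brg1 loss in mTEClo and the mean log2 signal of the Aire-line mTEClo libraries had a Pearson r of -0.33 and a Spearman rho of -0.32, against -0.14 and -0.15 over the other regions at the same minimum level. These coefficients are across regions that share the same libraries, and are descriptions.

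**Figure D4:**
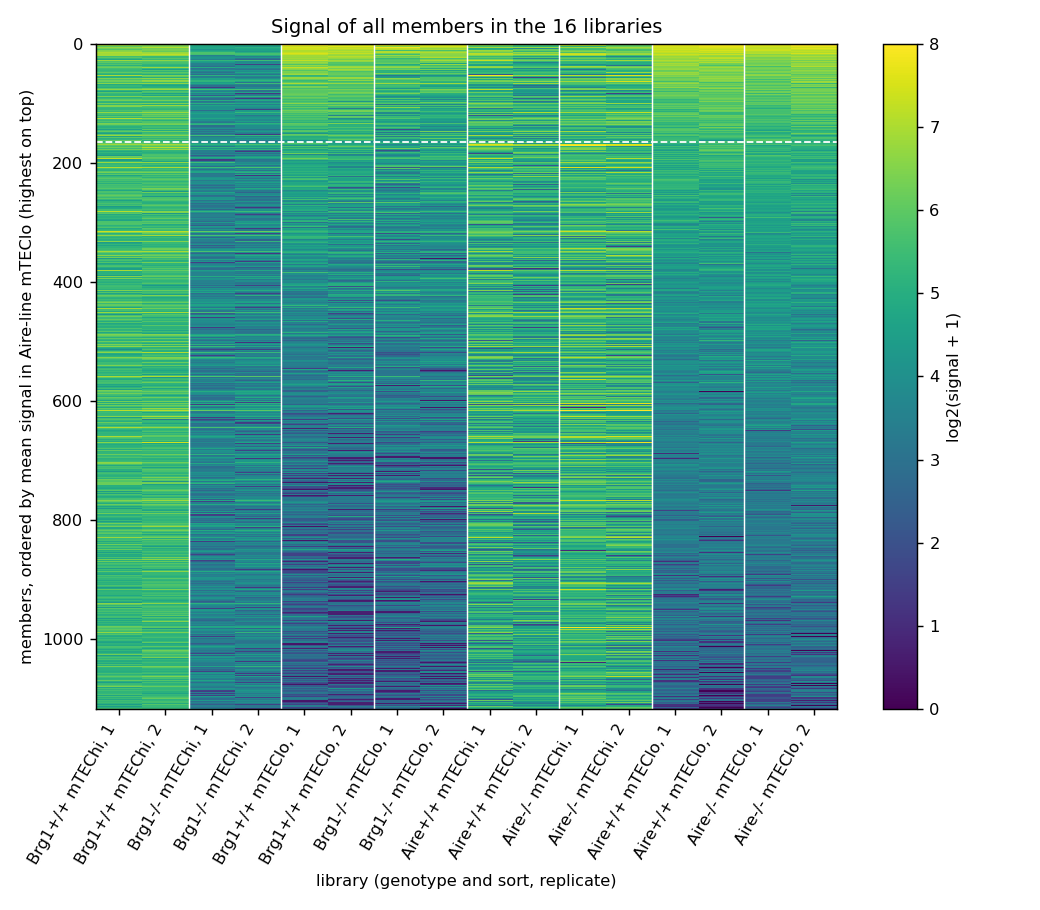
log2(signal + 1) of each of the 1118 members (rows) in the 16 libraries (columns), ordered by the mean signal of the 4 Aire-line mTEClo libraries with the highest on top; the dashed line closes the 164 members at 40 or more. The Brg1-/- mTEChi columns are dark over the whole height, while the mTEClo columns are bright mainly above the dashed line and the Aire-line mTEChi columns are bright over much of the height.

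Loss of Aire was compared at the same regions, as the other knockout of the series. limma called 0 members in Aire-/- against Aire+/+ mTEChi, with 0.0111% of all regions called higher and 0.00977% lower, and it marked 121 members at an unadjusted p under 0.05 (10.8%, with 10.2%). Both Aire-/- mTEChi libraries were above both Aire+/+ mTEChi libraries in 332 members (29.7%, with 18.9%) and below both in 142 (12.7%, with 18.6%). At least 2-fold differences were found upward in 44 members (3.94%, with 2.89%) and downward in 8 (0.716%, with 3.05%). Of the other regions at the same minimum level, 22.3% were above without overlap and 15.7% below. At least 2-fold differences were found upward in 1.62% of them and downward in 0.736%, so the low downward share is shared by regions of that level. The members' median log2 difference was 0.29, beside 0.00 over all regions tested and 0.09 over the other regions at the same minimum level, and it was 0.11 without Aire+/+ mTEChi replicate 2. Without Aire+/+ mTEChi replicate 1 the members' median was 0.35.

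The members lower in signal without Brg1 thus had, by their median, slightly more signal without Aire in mTEChi. The rule's mirror for Aire loss, with the same fold and level, selected 3115 regions more open without Aire, which shared 37 regions with the members (3.31% of the members and 1.19% of that list, with 1.24% of all regions in it). The 2259 regions less open without Aire shared 4 (0.358% of the members, with 0.902% of all regions). The chromosome 8 region chr8:116879717-116880216 is among the clearer cases, with 66.2 and 79.1 in Aire+/+ mTEChi and 163 and 139 in Aire-/- mTEChi, and limma did not call it (log2 difference 1.05, adjusted p = 0.338).

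In mTEClo, loss of Aire gave 0 calls among the members and 0 in the series. limma marked 37 members at an unadjusted p under 0.05 (3.31%, with 2.5%). Both Aire-/- mTEClo libraries were above both Aire+/+ libraries in 167 members (14.9%, with 16.8%) and below both in 206 (18.4%, with 17.1%). The median log2 difference was 0.01. The difference between the Aire effects in mTEChi and in mTEClo was called at 0 members in limma, and 70 (6.26%, against 5.15% of all regions) passed an unadjusted p of 0.05.

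The members were spread over all 19 autosomes and the X chromosome. Chromosomes 11 and 9 held the most, 95 and 93. Chromosome 9 held 8.32% of the members and 5.90% of all regions tested, and chromosome 10 held 3.31% and 5.08%. The X chromosome held 20 members, or 1.79% against 1.56%. The gap to the nearest region of the table had a median of 968.5 bp for the members, 916 bp for all regions tested and 538 bp for the other regions at the same minimum level. The members lay near other regions of the table about as often as regions in general, with 7.69% against 8.56% having no neighbour within 10 kb. Of the other regions at the same minimum level, fewer had none (4.83%).

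Most members were isolated from each other. With gaps of at most 50 kb, 991 had no other member near, and 127 fell into 59 groups, 8 of which held 3 or more. The largest held 4 members between 123643587 and 123716137 on chromosome 4, a span of 72.6 kb. The median over its members was 39.8 in Brg1+/+ mTEChi, 12.1 in Brg1-/- mTEChi, 24.6 in Aire+/+ mTEChi and 34.8 in Aire-/- mTEChi. In mTEClo it was 16.3 in Brg1+/+ and 7.12 in Brg1-/-. The members of this group differed among themselves: chr4:123693662-123694161 was open in mTEClo, with 52.5 and 69.0 in Brg1+/+ and 15.9 and 31.1 in Brg1-/-, while chr4:123643587-123644086 was low there, with 1.77 and 0.606 in Brg1+/+ and 6.16 and 5.24 in Brg1-/-. A group of 3 on chromosome 13, from 30784834 to 30851308, had 40.8 in Brg1+/+ and 14.5 in Brg1-/- mTEChi, and 10.6 in Brg1+/+ and 13.2 in Brg1-/- mTEClo. A group of 3 on chromosome 14, from 47572485 to 47620421, had 44.5 and 13.6 in mTEChi and 30.8 and 10.9 in mTEClo.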

How the data were processed

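ATAC-seq libraries of sorted mTECs, 2 in each of 8 groups taken from the labels, were analysed from the deposited table of signal per region. The table was made by the authors; the submitters' processing notes list Bowtie2, MACS2 and the mm9 build but no version. The definition of regions, the Tn5 shift, the treatment of duplicates and the scaling of libraries are not given in the sources used here. Signal was analysed as log2(signal + 1), a scale that shrinks differences at low signal. A filter at the 10th percentile of the mean (7.48) took out 25032 regions, and 225281 were tested, all 1118 members among them. limma 3.58.1 in R 4.3.3 fitted 1 mean per group over 16 libraries (8 residual degrees of freedom, trend and robust), and calls were made at a Benjamini-Hochberg adjusted p of 0.05, two-sided, over all regions tested. The fit was tested on simulated data.

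The members, the comparisons and the rule for named regions were chosen with earlier results of these data known. The text names regions from these sets: the 5 highest members by ratio and by mean, up to 5 called members per comparison and direction by size of difference, up to 8 that also meet the 2-fold limit in mTEClo, the neighbours of the thresholds, and the 3 largest groups. Not each of them is printed. The starts in the table were read as counted from 0, and positions are printed counted from 1. Annotation and sequence of mm9 were not used here, so gene lists and gene distances were not analysed. Alternatives were a pseudocount of 0.5 or 5, other filters, quantile normalization, re-centring, only the libraries of 1 line, a replicate block, a 3-fold limit, a minimum mean of 60, and leaving out each library.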

Additional observations from a re-analysis of the deposited data

How the results depend on the processing

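A 3-fold limit kept 291 members and a minimum mean of 60 kept 195. Quantile normalization before the rule gave 1906 members, re-centring gave 3716, and leaving out 1 library of the rule gave 3665 to 6105, since such a rule asks less. For mTEChi against mTEClo in Aire+/+, calls were 54 and 86 under the 3-fold limit and the minimum of 60, and 93 to 165 without 1 library. The median was 1.39 with the minimum of 60, 0.70 after quantile normalization, 0.61 after re-centring and 0.84 to 1.05 without 1 library. In Aire-/- the calls were 91 and 99 under those limits and 122 to 152 without 1 library. The median there was 1.23 and 1.53 under those limits, 0.94 with a pseudocount of 5, 0.94 after quantile normalization, 0.95 after re-centring and 1.06 to 1.32 without 1 library.

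For Brg1 loss in mTEClo, the single call became 0 with a pseudocount of 5, after quantile normalization, in the fit of the Brg1 line alone, and without any 1 library (0 to 0). The median was -0.25 after re-centring and -0.21 to -0.06 without 1 library. Members with both Brg1-/- libraries lower numbered 76 and 60 under the stricter limits and 418 to 492 without 1 library, and those at least 2-fold lower 11, 13 and 113 to 157. For members at 40 or more in Aire-line mTEClo, alternatives chosen after seeing the data gave medians of -0.46 (quantile), -0.78 (re-centring), -0.45 (minimum of 60), -0.42 (from a level of 20) and -0.73 to -0.57 (without 1 library). For Aire loss in mTEChi, calls were 1 with a filter at the 50th percentile, 2 after quantile normalization and 0 to 17 without 1 library, and the median was 0.11 to 0.37. In mTEClo, calls were 0 to 1 and the median -0.07 to 0.06 without 1 library. The causes were not tested, beyond what fewer members or libraries bring by construction.

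The replicate block left 255 calls in Aire+/+ and 338 in Aire-/- between the fractions, 1 for Brg1 loss in mTEClo and 0 for Aire loss in either fraction, and changed no other call. Deviations of libraries with the same number correlated between -0.02 and 0.03, and the labels give the numbers no meaning. Read depth is unknown. The most frequent value in a library was shared by 1.97% to 7.73% of regions, which limits precision at low signal.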
